A study of Papio anubis with 60 samples.

Results

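Wide stretches of H3K27me3 that hold little H3K4me3 were examined in baboon embryonic stem cells (ESC), with the marks found on the same stretches in induced pluripotent stem cells (iPSC). H3K27me3 peaks of the ESC list on chromosomes 1 to 20 were joined where they lay within 3 kb of each other. Domains of at least 10 kb were kept where ESC H3K4me3 peaks covered under 25% of the length. The rule gave 442 domains, called sparse domains here, out of 1586 wide ESC domains and 29842 autosomal ESC H3K27me3 domains of any length. The other 1144 wide domains, in which H3K4me3 covered 25% or more, are called H3K4me3-rich and serve for comparison. Since the domains were chosen by the ESC H3K27me3 and H3K4me3 lists, their values in these lists are a description of the choice.

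H3K27me3 is written by Polycomb repressive complex 2 and marks genes that are held silent, many of them regulators of development in pluripotent cells. H3K4me3 sits at active and poised promoters, and the joint presence of both marks at a promoter is called bivalent. H3K27ac marks active promoters and enhancers. H3K9me3 marks constitutive heterochromatin and silenced repeats.

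The cells were from the olive baboon, Papio anubis. Lines B4 and B15 (ESC) and lines 160-2 and M14939#3 (iPSC) had grown with feeder cells, and the labels name no treatment or genetic change. The labels list 60 libraries in 10 groups of 6, with 3 replicates per line and 2 lines in a group, for each cell type with 1 of the 4 marks or an input. Chromatin of 50000 cells was digested with micrococcal nuclease for every library. The values used are 8 peak lists, 1 per cell type and mark, so no list has a replicate, no test between cell types was possible, and the depth behind a list is unknown. Each line belongs to 1 cell type, so cell type and line cannot be told apart. Intervals below are 95% Wilson intervals over domains or peaks, and they cover counting error only, since neighbouring regions are not independent. The coordinates are those of the lists, whose build was not given in the sources used here, so domains are identified by position and no gene is named.

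The sparse domains together spanned 8.15 Mb. Their length ran from 10.001 kb to 112 kb, with a median of 14.4 kb and the middle 50% between 11.7 kb and 19.4 kb. Of the 442, 105 reached 20 kb and 12 reached 50 kb. The H3K4me3-rich wide domains were of similar median length, 15.0 kb, and reached 235 kb. A sparse domain held a median of 6 ESC H3K27me3 peaks and 4 ESC H3K4me3 peaks. Only 8 sparse domains had no ESC H3K4me3 peak at all. In the others H3K4me3 came in 2340 peaks with a median width of 322 bp, beside 276 bp for all autosomal ESC H3K4me3 peaks.

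In the iPSC lists the sparse domains held less H3K27me3 and about as much H3K4me3. ESC H3K27me3 peaks covered 62.3% of the sequence of the sparse domains, and iPSC H3K27me3 peaks covered 29.6%. The iPSC share was nevertheless 8.52 times the 3.47% of all autosomal sequence that iPSC H3K27me3 peaks covered. ESC H3K27me3 peaks covered 2.08% of that sequence, and their share of the sparse domains is set by the choice of domains. The iPSC H3K27me3 list was the longer one, with 131632 autosomal peaks beside 51150 in ESC. H3K4me3 covered 16.2% of the sparse domains in the ESC list and 18.7% in the iPSC list, while its autosomal coverage was 5.205% and 5.42%. H3K27ac was scarce, at 0.694% in ESC and 0.318% in iPSC, where the autosomes had 3.95% and 2.10%. H3K9me3 was close to its autosomal level in both lists: it covered 8.73% of the sparse domains in ESC and 6.67% in iPSC, against 8.46% and 6.96%.

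**Figure D1:**
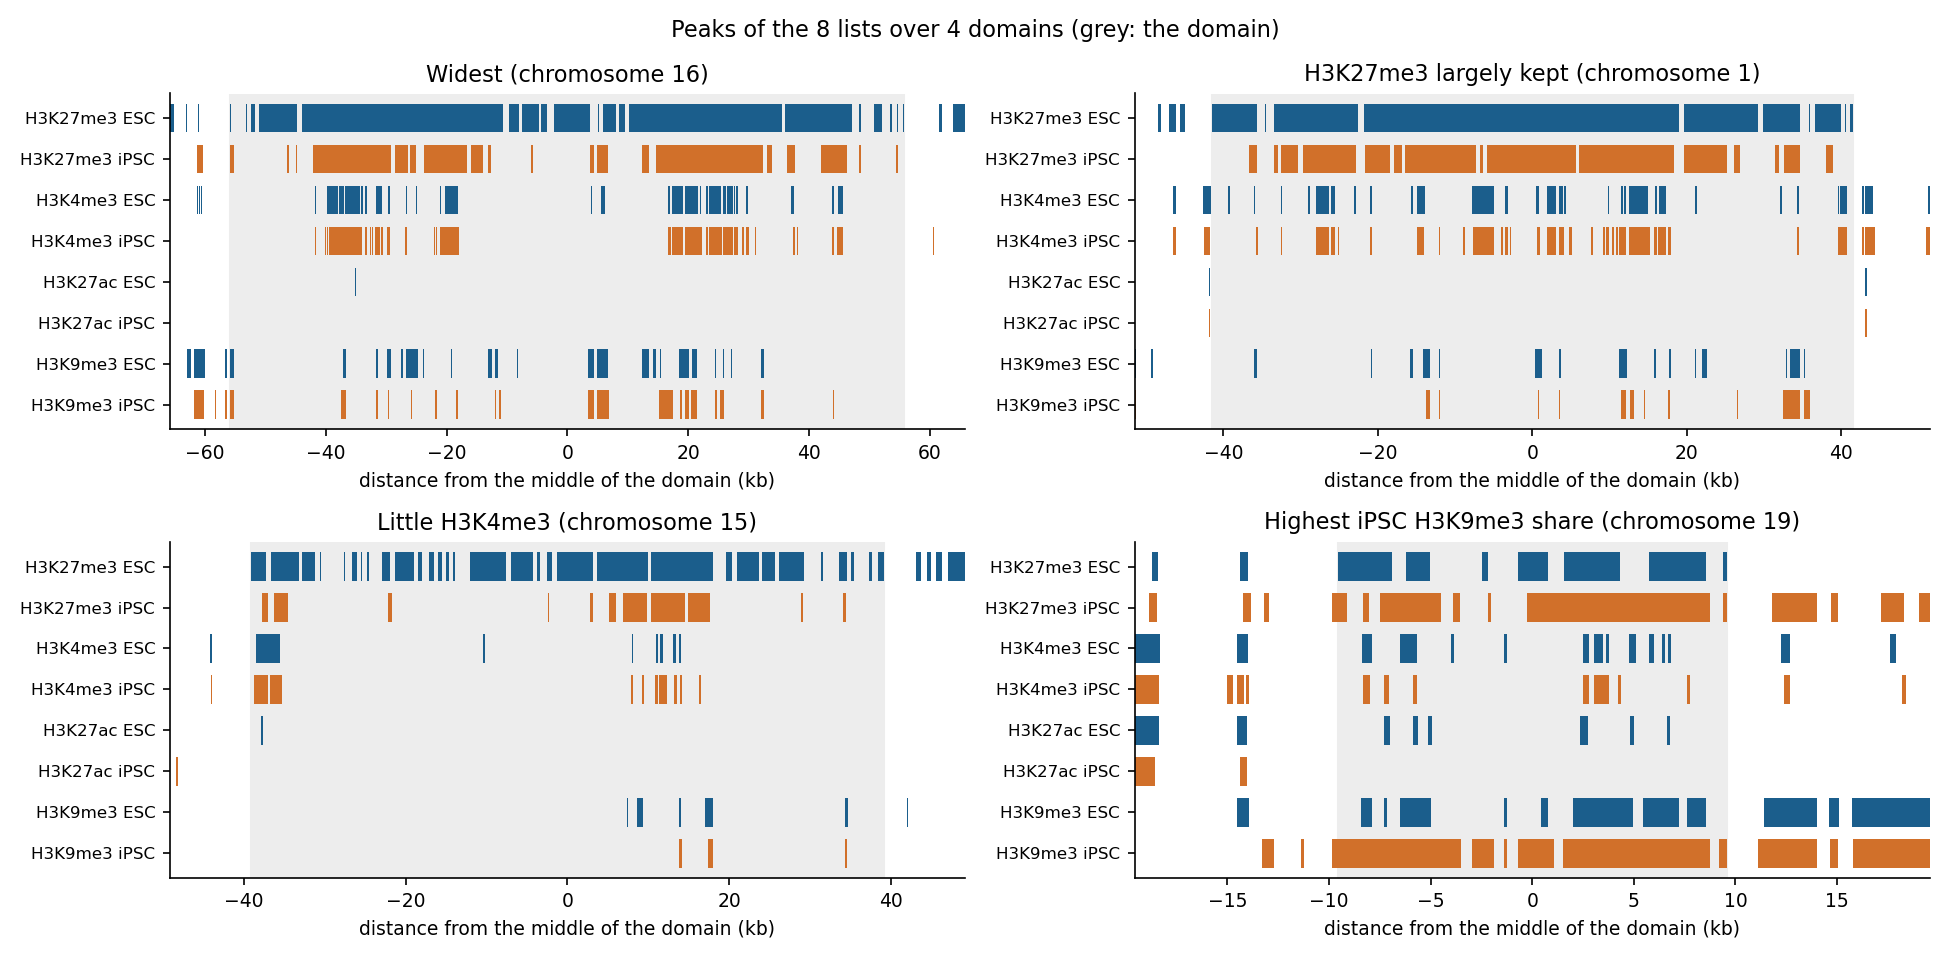
Peaks of the 8 lists over 4 sparse domains, with distance from the middle of the domain in kb on the x axis, 1 row per mark and cell type (ESC blue, iPSC orange) and the domain in grey. In the widest domain and in those of chromosomes 1 and 15, iPSC H3K27me3 peaks cover 49.6%, 70.2% and 18.9% of the length. The iPSC H3K4me3 peaks cover 22.4%, 22.6% and 7.68% there. In the domain of chromosome 19, iPSC H3K27me3 covers 70.2% and iPSC H3K9me3 87.1%.

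The 5 widest sparse domains show the range. The widest, chr16:28604572-28716237 (112 kb), was covered by H3K27me3 over 84.4% in ESC and 49.6% in iPSC. Its H3K4me3 covered 19.4% in ESC and 22.4% in iPSC, and its iPSC H3K27me3 lay in 7 separate domains. In chr1:21617088-21704291 (87.2 kb) the H3K27me3 share was 82.2% in ESC and 56.7% in iPSC. In chr6:72422816-72506005 (83.2 kb) it was 71.0% and 27.1%. The domain chr1:37944005-38027009 (83.0 kb) had the highest shares of the 5, with 92.0% in ESC and 70.2% in iPSC. The domain chr15:53590424-53668667 (78.2 kb) had the lowest, with 65.2% and 18.9%, and also the least ESC H3K4me3, 5.80%. All 5 were lower in the iPSC list, and iPSC H3K27me3 peaks were present in each.

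Few sparse domains were kept in iPSC, a domain being called kept where iPSC H3K27me3 peaks covered at least 50% of its length. Of the 442, 45 were kept (10.2%, interval 7.696 to 13.4%). The same call was met by 18.4% of all autosomal ESC domains and by 34.7% of the wide ones. Among the H3K4me3-rich wide domains 506 were kept (44.2%, interval 41.4 to 47.1%). ESC H3K27me3 itself covered under 50% of the length in 119 of the 442 sparse domains and in 91 of the 1144 H3K4me3-rich ones. These would miss the call even at an iPSC share equal to that of ESC. The median ESC share was 100% over all autosomal domains and 60.8% over the sparse ones. The kept share of the sparse domains depended on how they were drawn: it was 39.5% when ESC peaks were joined within 1 kb (129 domains), and 24.5% when only ESC H3K27me3 peaks with a −log10 q of at least 2 were used (192 domains). With only those iPSC H3K27me3 peaks counted that touched no iPSC H3K9me3 peak, so that a wide peak with any contact dropped out whole, 3 sparse domains and 189 H3K4me3-rich ones were kept, where all autosomal domains had 8.79% and wide ones 12.1%.

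Of the sparse domains, 17 had no iPSC H3K27me3 peak (3.85%, interval 2.42 to 6.07%), where 57.1% of all autosomal domains and 1.39% of the wide ones had none. The share was 9.50% with iPSC peaks of a −log10 q of at least 2, 11.3% with the iPSC list cut to the length of the ESC list, and 15.6% with iPSC peaks that touched no iPSC H3K9me3 peak. With all iPSC peaks, 191 domains were covered above 0 and up to 25%, 189 between 25 and 50%, 43 between 50 and 75%, and 2 over 75% or more. The median iPSC share was 26.4%, with the middle 50% of domains between 14.1% and 39.7%. It was below 50% of the domain's own ESC share in 276 sparse domains (62.4%), a call met by 74.9% of all autosomal domains, 37.8% of wide ones and 28.3% of the H3K4me3-rich ones. The iPSC share was lower than the ESC share in 430 sparse domains, where 92.9% of all autosomal domains and 97.1% of wide ones were lower, a direction that choosing domains by ESC peaks favours.

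**Figure D2:**
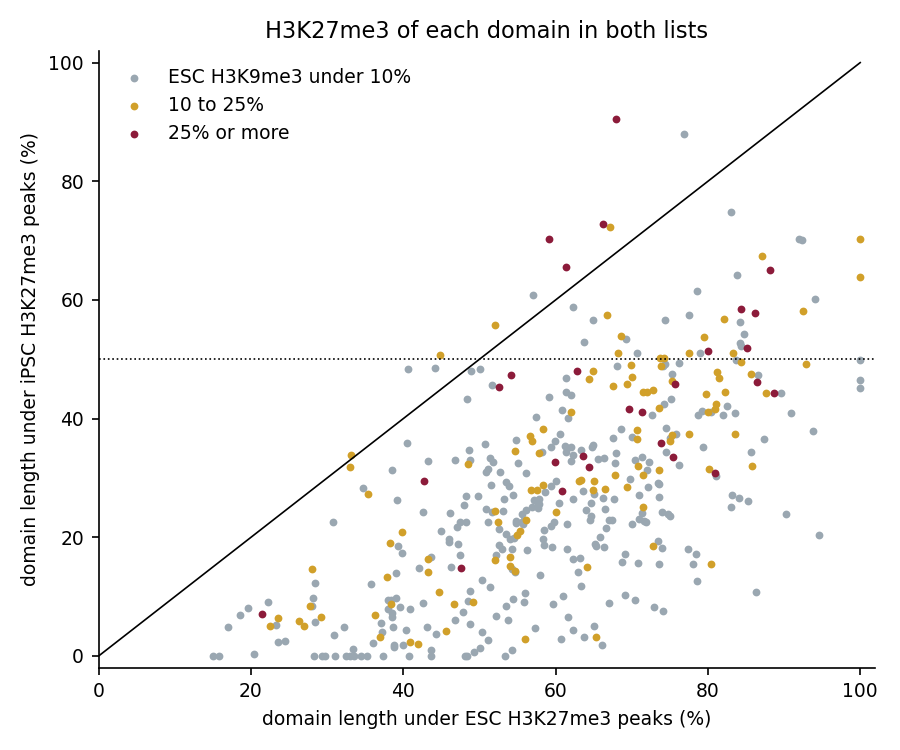
Percent of the length of each of the 442 sparse domains under ESC H3K27me3 peaks (x axis) and iPSC H3K27me3 peaks (y axis), coloured by the share under ESC H3K9me3; the line marks equal shares and the dots the 50% used to call a domain kept. Of the domains, 430 lie below the line and 45 at or above 50%.

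The 5 widest domains with no iPSC H3K27me3 peak were chr16:29991225-30013469 (22.2 kb), chr14:46197162-46211577 (14.4 kb), chr8:75840049-75854425 (14.4 kb), chr1:157684263-157698390 (14.1 kb) and chr11:48778872-48792928 (14.1 kb). Their ESC H3K27me3 covered between 31.1% and 43.7%. The 17 such domains had a median length of 12.2 kb, and their median ESC shares were 33.5% for H3K27me3 and 3.23% for H3K4me3. The 45 kept domains had median ESC shares of 78.6% and 19.96%, and the 397 not kept had 58.3% and 17.55%. Only chr3:116822332-116836367 was covered over at least 90% by iPSC H3K27me3. It had 67.9% H3K27me3 in ESC and 90.6% in iPSC, H3K4me3 of 17.1% and 64.5%, and H3K9me3 of 49.7% and 46.3%.

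The iPSC share followed the ESC share from domain to domain. Across the 442 domains the Spearman correlation of the 2 shares was 0.65 for H3K27me3, 0.80 for H3K4me3, 0.79 for H3K9me3 and 0.50 for H3K27ac. These are descriptions over regions of the same lists and share mappability and sequence composition. In the 25% of sparse domains with the least ESC H3K27me3 the median iPSC share was 8.22%, and in the 25% with the most it was 42.4%. At like ESC shares the kept call can be compared only from 50% upward. Where ESC H3K27me3 covered under 50% of the domain, 1 of 119 sparse domains and 1 of 91 H3K4me3-rich ones were kept. An iPSC share equal to the ESC share could not meet the call there. In that class the median iPSC shares were 8.46% and 18.5%, and the median ESC shares 39.1% and 43.2%. At 50 to 60% the kept shares were 3.09% of 97 and 10.1% of 149, and at 60 to 70% 11.96% of 92 and 23.2% of 203. The intervals overlapped in both of these classes. Where ESC H3K27me3 covered 70 to 80% of the domain, 13.3% of 75 sparse domains and 42.8% of 250 H3K4me3-rich ones were kept. Where it covered 80 to 100%, the values were 33.9% of 59 and 74.5% of 451. Without matching for ESC share, the kept share and the median iPSC share were lower in the sparse domains than in the H3K4me3-rich ones on 20 of 20 chromosomes. The median ESC H3K27me3 share was mostly lower there too, as on chromosome 19, with 50.1% and 73.1%. On chromosome 2 alone it was not lower, with 74.0% and 72.5%, and the iPSC medians there were 36.2% and 37.1%.

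Within the sparse domains, iPSC H3K27me3 covered more of the sequence at and near H3K4me3 than far from it. Inside ESC H3K4me3 peaks, H3K27me3 covered 83.5% in ESC and 62.5% in iPSC. Within 1 kb of such a peak the shares were 70.2% and 41.1%, and at 1 to 2 kb they were 59.4% and 21.3%. At 2 to 5 kb they were 48.7% and 11.4%, and at 5 to 10 kb 45.4% and 5.11%. Beyond 10 kb ESC H3K27me3 covered 43.5% of the sequence and iPSC H3K27me3 1.95%. The iPSC share was 0.748 of the ESC share in H3K4me3 peaks and 0.0449 of it beyond 10 kb. The ESC values are held up by the choice of domains from ESC peaks. When the iPSC lists chose the domains by the same rule, far from H3K4me3 it was the ESC list that was low. In the 71 domains so chosen that had iPSC H3K9me3 under 25%, ESC H3K27me3 covered 70.2% in iPSC H3K4me3 peaks and iPSC H3K27me3 74.1%. At 2 to 5 kb the shares were 29.97% in ESC and 33.1% in iPSC, at 5 to 10 kb 9.36% and 33.6%, and beyond 10 kb 4.22% and 29.99%. The sequence over 5 kb from H3K4me3 made up 6.81% and 2.52% of these domains in its 2 classes. They came to 0.0735 Mb and 0.0272 Mb. At 1 to 2 kb the 71 domains had 36.4% in ESC and 38.4% in iPSC. The gap seen in the sparse domains was thus mirrored beyond 5 kb but not nearer to H3K4me3. The 2 sets are not independent, since 30 of the 71 domains touched a sparse domain, which the ESC list chose. The sparse domains had no limit on H3K9me3, so the 2 sets also differ in that, and the iPSC H3K27me3 list was the longer one. Whether the low iPSC coverage far from H3K4me3 is particular to iPSC was not tested.

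**Figure D3:**
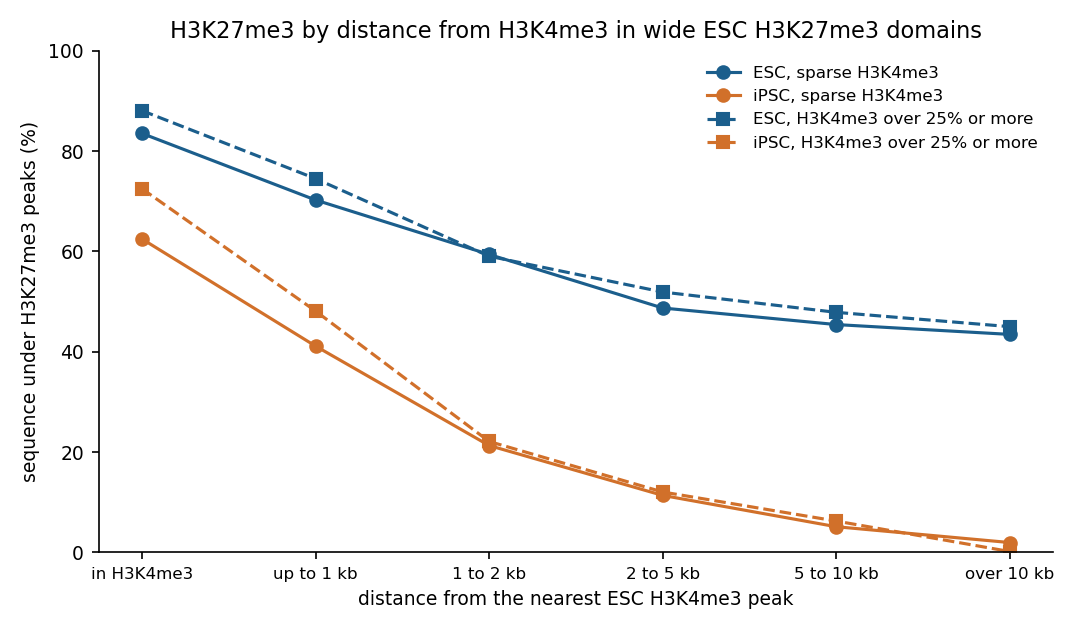
Percent of sequence under H3K27me3 peaks (y axis) by distance from the nearest ESC H3K4me3 peak (x axis, classes) in sparse (solid) and H3K4me3-rich (dashed) wide domains, for ESC (blue) and iPSC (orange). In sparse domains ESC goes from 83.5% to 43.5% and iPSC from 62.5% to 1.95%.

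The H3K4me3-rich domains followed nearly the same course with distance, with iPSC shares of 72.5% in H3K4me3 peaks, 48.1% within 1 kb, 22.1% at 1 to 2 kb and 12.03% at 2 to 5 kb. Sequence over 2 kb from ESC H3K4me3 made up 36.4% of the sparse domains and 10.03% of the H3K4me3-rich ones, as the limit on H3K4me3 implies. The sparse domains' mixture of distances was also taken with the iPSC coverage of the H3K4me3-rich domains in each class. It gave 33.7%, beside the 29.6% seen in the sparse domains and the 52.9% in the H3K4me3-rich ones. The same step for ESC H3K27me3 gave 65.3%, beside 62.3% and 76.8%. What sets these differences was not tested. In 355 of the 434 sparse domains with ESC H3K4me3, iPSC H3K27me3 covered a larger share of the sequence in H3K4me3 peaks than of the rest, with medians of 60.7% and 20.2%. The share was lower in 65 and equal in 14.

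H3K4me3 islands, made by joining ESC H3K4me3 peaks within 1 kb and keeping those of at least 1 kb, numbered 583 in the sparse domains, with a median length of 2.28 kb. Of these, 572 (98.1%) touched an iPSC H3K4me3 peak and 502 (86.1%) an iPSC H3K27me3 peak, so most islands carried both marks in the iPSC lists as well. In the H3K4me3-rich domains the corresponding shares were 98.7% and 87.8%. The 61 sparse domains without an island had a median iPSC H3K27me3 share of 6.64%. The median was 27.7% in the 245 domains with 1 island, 27.3% in the 105 with 2 and 46.9% in the 31 with 3 or more. The last group was also longer, with a median of 40.0 kb. The median ESC H3K27me3 share rose along the same 4 classes, at 43.3%, 60.9%, 62.2% and 73.7%.

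Of the iPSC H3K27me3 base pairs in the sparse domains, 93.5% fell within ESC H3K27me3 peaks, which by the choice of domains cover 62.3% of the sequence. Of the 3114 ESC H3K27me3 peaks, 36.5% touched an iPSC H3K27me3 peak. The share was 20.03% for the 25% of peaks with the lowest fold enrichment, the authors' value for each peak over background, and 73.8% for the 25% with the highest. Of the ESC peaks of at least 5 kb, 247 of 251 touched an iPSC peak. ESC peaks that touched H3K4me3 met an iPSC peak in 70.9% of cases, and those off H3K4me3 in 20.53%. Wide peaks touch other peaks more readily, and among ESC peaks under 1 kb the shares were 33.7% and 16.5%.

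Most sparse domains met 1 or 2 iPSC domains, a contact of 1 bp being enough. With iPSC peaks joined in the same way, 246 sparse domains met 1 iPSC domain, 141 met 2 and 38 met 3 or more. The longest iPSC piece inside a sparse domain covered a median of 35.5% of its length. An iPSC domain of at least 10 kb touched 107 of the 442, and in 28 an iPSC domain reached over 3 kb past an edge. These counts were not made for the H3K4me3-rich domains, so they show no trait particular to the sparse ones.

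The iPSC mark was concentrated in the middle of the domains. In the outer 10% at each end, H3K27me3 covered 53.9% in ESC and 12.9% in iPSC, and in the central 20% it covered 71.1% and 41.7%. ESC H3K4me3 went the same way, from 8.25% at the ends to 23.1% in the centre. In the 10 kb on either side of the domains iPSC H3K27me3 covered 4.67%. ESC H3K27ac covered 0.975% at the ends, 0.578% in the centre and 1.93% in the flanks. The H3K4me3-rich domains had the same shape, with iPSC H3K27me3 over 24.6% at the ends and 67.4% in the centre. By the rule each domain starts and ends with an ESC H3K27me3 peak, so the ESC list sets where the ends lie.

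**Figure D4:**
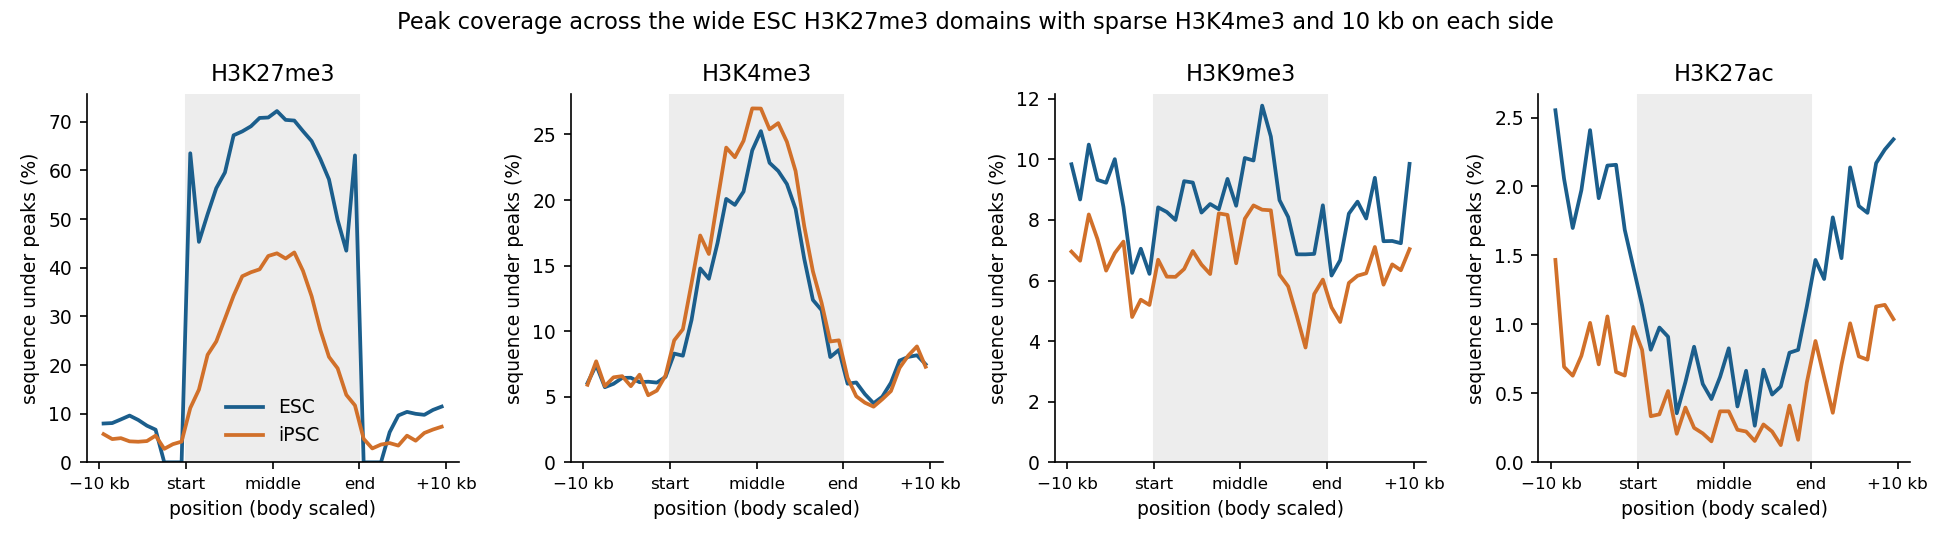
Percent of sequence under peaks of each mark (y axis, 1 panel per mark, ESC blue, iPSC orange) along the sparse domains, scaled to a common length (grey), and in the 10 kb on each side. ESC H3K27me3 is 0 in the first 3 kb outside, since peaks within 3 kb were joined, and iPSC H3K27me3 rises from 12.9% in the outer 10% at each end to 41.7% in the central 20%.

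Most of the sequence under H3K4me3 was common to both lists. The iPSC share was under 25% in 347 of the sparse domains (78.5%, interval 74.4 to 82.1%), where 53.7% of all autosomal domains and 24.3% of wide ones were under it. It was higher in iPSC than in ESC in 298 (67.4%), beside 29% of all autosomal domains and 65.1% of wide ones. The largest iPSC share, 64.5%, was that of the domain of chromosome 3 described above. Of the ESC H3K4me3 sequence in sparse domains, 86.1% was also under iPSC H3K4me3 peaks. Of the iPSC H3K4me3 sequence there, 74.7% was under ESC H3K4me3 peaks. In the H3K4me3-rich domains these values were 91.7% and 88.1%. Choosing domains by low ESC H3K4me3 favours a lower second value. The 8 domains with no ESC H3K4me3 peak had iPSC shares between 0 and 4.84% for that mark.

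H3K27ac was present as few peaks. Their median width in ESC was 224 bp, beside 216 bp for all autosomal ESC H3K27ac peaks. An ESC H3K27ac peak lay in 145 sparse domains (32.8%, interval 28.6 to 37.3%), where 28.2% of all autosomal domains and 47.2% of wide ones had one. An iPSC peak lay in 84 (interval 15.6 to 22.9%), beside 19% and 29.1%. Both lists had a peak in 65, beside 17% and 26%. The H3K4me3-rich domains had an ESC peak in 52.8% and an iPSC peak in 33.0%. The share with an ESC peak was lower in the sparse domains on 18 of 20 chromosomes and that with an iPSC peak on 16. Of the ESC H3K27ac base pairs in sparse domains, 71.5% lay in ESC H3K4me3 peaks. Counted against sequence, ESC H3K27ac covered 3.06% of the ESC H3K4me3 peaks and 0.236% of the rest. In the H3K4me3-rich domains these values were close, at 2.92% and 0.284%. The rule limits H3K4me3 in the sparse domains, which favours fewer of them having an H3K27ac peak. The highest ESC H3K27ac share was 11.8%, in chr16:27266698-27277751, with 7.24% in iPSC. Next came chr1:9815485-9826527 with 8.91% and 3.79%, and chr7:70422728-70433211 with 7.34% and 8.75%. Restricting to H3K27ac peaks with a −log10 q of at least 5 lowered the shares of sparse domains to 21.9% in ESC and 10.4% in iPSC.

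H3K9me3 covered at least 25% of 27 sparse domains in ESC (6.11%), where 16.4% of all autosomal domains and 5.04% of wide ones were so covered. In iPSC it did so in 16 (3.62%), beside 13.1% and 3.15%. In 10 domains it did so in both, beside 9.56% and 1.95%. Inside ESC H3K4me3 peaks ESC H3K9me3 covered 14.9% and outside them 7.53%. Kept domains were found more often where H3K9me3 was present: 1 of 93 domains with no ESC H3K9me3 peak was kept, 19 of 215 with a share under 10%, 16 of 107 with 10 to 25% and 9 of 27 with 25% or more. The median ESC H3K27me3 shares of these classes were 60.9%, 57.1%, 65.1% and 67.9%. The Spearman correlation of the ESC H3K9me3 share with the iPSC H3K27me3 share was 0.32, and 0.16 in the H3K4me3-rich domains. Of the 1757 iPSC H3K27me3 peaks over sparse domains 31.3% touched an iPSC H3K9me3 peak, and of the 3114 ESC H3K27me3 peaks 23.5% touched an ESC H3K9me3 peak. In the H3K4me3-rich domains these shares were 24.9% in iPSC and 25.2% in ESC. The part of H3K9me3 in these values was not tested. The highest ESC H3K9me3 share was 67.6%, in chr19:35851847-35862516, a domain with no ESC H3K4me3 peak, and its H3K27me3 covered 52.5% in ESC and 45.3% in iPSC. The domain chr1:4218160-4247792 followed with 57.6%, then that of chromosome 3. In iPSC the highest shares were 87.1% in chr19:38130968-38150094, 75.8% in chr10:54854311-54865190 and 68.5% in chr12:4980215-4991724. In the last 2 the ESC list had 7.66% and 7.45% H3K9me3. In the domain chr19:38130968-38150094 H3K27me3 covered 59.2% in ESC and 70.2% in iPSC.

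Chromosome 16 held the densest set, an observation made after its values were seen. It had 40 sparse domains, 5.34 per 10 Mb, the highest density of the 20 chromosomes, where the median was 1.46. Wide ESC domains in general were dense there, at 15.9 per 10 Mb (16.3 on chromosome 19), and the sparse ones made up 33.6% of them, below the 34.2% of chromosome 12 and the 33.7% of chromosome 14. Their median iPSC H3K27me3 share was 12.01%, against 27.5% for the 402 on the other chromosomes. None of the 40 was kept, which allows up to 8.76% by the Wilson interval. On chromosome 2 none of 15 was kept either, at a median iPSC share of 36.2%. Of the 17 domains with no iPSC H3K27me3 peak, 6 lay on chromosome 16. The 40 domains also had less ESC H3K4me3, with a median of 10.2% against 18.4%, and less ESC H3K27me3, 50.6% against 61.5%. Their ESC H3K27me3 median thus lay close to the 50% that the kept call asks of iPSC. Without chromosome 16, 45 of 402 domains were kept (11.2%). The H3K4me3-rich domains of chromosome 16 had a median iPSC share of 44.9%, against 47.1% elsewhere. Runs of at least 3 sparse domains within 100 kb of each other numbered 12. The 2 with the most domains were on chromosome 16, with 8 in chr16:28386525-28736063 and 7 in chr16:29801645-30133738, and their iPSC shares ran from 0 to 49.6% and from 0 to 27.9%.

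**Figure D5:**
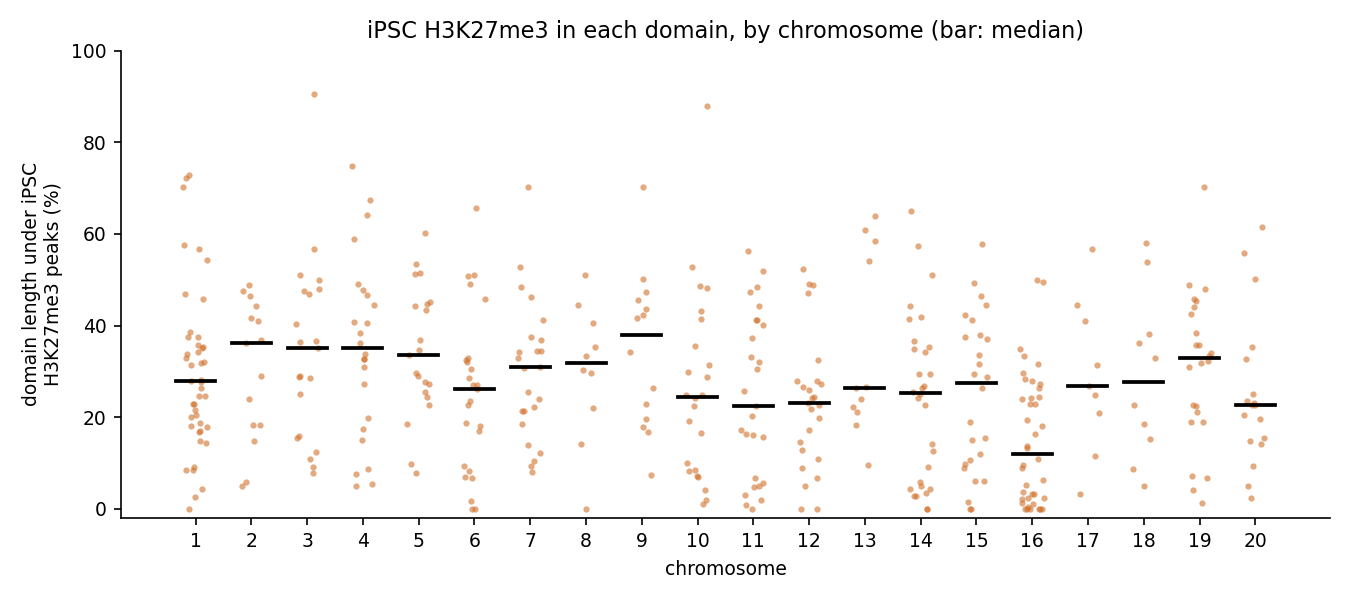
Percent of the length of each sparse domain under iPSC H3K27me3 peaks (y axis) by chromosome (x axis), each point a domain and each bar the median. The 40 domains of chromosome 16 have a median of 12.01% and none reaches 50%.

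Domains close to the limits of the rule had values on both sides. The 3 domains just over 10 kb had iPSC H3K27me3 shares of 2.88%, 0% and 22.6%, and the 3 just under it 2.84%, 43.3% and 0%. The 3 with ESC H3K4me3 just under 25% had iPSC H3K27me3 shares of 31.5%, 49.1% and 29.1%, and the 3 just over it 38.8%, 51.1% and 46.6%.

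The rule applied the other way round, to iPSC lists, chose mainly different sequence. It gave 1199 wide iPSC domains with iPSC H3K4me3 under 25%, of which 1043 (87.0%) had iPSC H3K9me3 over at least 50% of their length. Of the 1199, 41 touched a sparse domain of ESC. Only 71 had H3K9me3 under 25%, and 30 of these touched a sparse domain. In these 71, H3K27me3 covered 48.0% in iPSC, whose list chose them, and 42.4% in ESC. The ESC list covered at least 50% of 32 of them and had no peak in 10. Of the sparse ESC domains, 415 had ESC H3K9me3 under 25%, and in these iPSC H3K27me3 covered 28.6% and 36 were kept.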

How the data were processed

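The values come from 8 deposited peak lists. MACS2, SAMtools 1.10, Picard and deepTools served to make them, per the submitters' processing notes. Aligner, build, calling thresholds and the pooling of libraries and inputs were not given in the sources used here. Narrow peaks were deposited for H3K4me3 and H3K27ac, and broad peaks for H3K27me3 and H3K9me3. For each peak the deposited lists give a fold enrichment over background, a ratio, and the −log10 of its q. The smallest −log10 q in the deposited files was 1.301 for narrow and 1.0003 for broad peaks.

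With Python 3.11.15, NumPy 2.4.6, pandas 2.3.3 and SciPy 1.17.1, overlapping peaks were merged, ESC H3K27me3 peaks joined within 3 kb, and the share of each domain under each list counted in base pairs. A peak touched a domain if at least 1 bp was shared. A peak was firm from a −log10 q of 5 (narrow) or 2 (broad). The counting was tested on simulated intervals. The rule, the domains and the gene lists were chosen with earlier results of these data known. Domains were named by a fixed rule: the widest, the widest without iPSC H3K27me3, those covered over at least 90%, the highest H3K27ac and H3K9me3 shares, and those next to each limit. The distance classes, islands, chromosome 16, the runs and the rule applied to the iPSC lists were added after values were seen.

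The gene table at hand, of assembly Panubis1.0, did not match the lists: on 12 of 20 chromosomes the last gene and the last peak ended over 5 Mb apart. The planned gene names, gene lists and marker checks of the cells were therefore not run, and no sequence is printed.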

Additional observations from a re-analysis of the deposited data

How the results depend on the processing

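Each list stands alone, so there is no spread between libraries and none could be left out. No paired analysis was possible because the replicates have no lists of their own and no result comes from a test. Of 31 alternative values, 23 moved beyond the counting interval or by over 1.5 times and 8 did not. The number of sparse domains, 442, was 129 with ESC peaks joined within 1 kb, 813 within 5 kb, 105 with a shortest length of 20 kb, 88 with H3K4me3 under 10% and 192 with firm ESC H3K27me3 peaks. The share kept in iPSC, 10.2%, was 39.5%, 5.66%, 17.1%, 5.68% and 24.5% under the same 5 settings. It was 7.24% with firm iPSC H3K27me3 peaks, 6.33% with the iPSC list cut to the length of the ESC list, 0.679% with iPSC H3K27me3 peaks that touch no iPSC H3K9me3 peak (off H3K9me3), and 52.9% or 0.452% when kept meant 25% or 75% of the length. Under these last 5 settings the H3K4me3-rich domains had 38.4%, 36.4%, 16.5%, 84.8% and 9.88%. The share with no iPSC H3K27me3 peak, 3.85%, was 0.952% from 20 kb, 9.50% with firm iPSC peaks, 11.3% with the cut list and 15.6% off H3K9me3. With firm peaks, iPSC H3K4me3 was under 25% in 86.7%, and H3K27ac peaks were present in 21.9% in ESC and 10.4% in iPSC. From 20 kb, 39.0% had an ESC H3K27ac peak. The cause of these changes was not tested.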
